A study of Mus musculus with 12 samples.

Results

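The genes described here make the proteoglycans and linkers of the brain's hyaluronan matrix, with a pair of membrane proteoglycans. They are the lecticans Acan (aggrecan), Bcan (brevican), Ncan (neurocan) and Vcan (versican), the link proteins Hapln1, Hapln2, Hapln3 and Hapln4, and Cspg4 (NG2) and Cspg5 (neuroglycan C). The 10 genes were chosen by name, and each was measured by 1 of the 21780 probe sets that carry a single gene symbol. Their RNA was read on Affymetrix whole-transcript arrays, 1 for each of 12 mouse brain cell cultures, and values are on the log2 scale. All 12 cultures, the controls included, came from Arf-/- mice carrying tv-a, a receptor that lets an avian retrovirus enter the cell. Glioblastoma cultures, 3 per group, were grown from tumours that arose after chicken DF-1 cells releasing a PDGFB-encoding virus (RCAS-PDGFB-HA) were injected into adult brain. The group mGC1_GFAP came from G/tv-a mice, mGC2_NES from N/tv-a mice and mGC3_CNP from C/tv-a mice, in which the promoters of Gfap, Nes and Cnp drive the receptor. The controls were 3 neural stem cell (NSC) cultures from the subventricular zone of adult mice, 1 from each line, and no culture was treated. Adherent tumour cultures were seeded on dishes coated with an extracellular matrix preparation, and the labels do not say whether the NSC dishes were coated. All tumours were driven by the same growth factor, origin and mouse line coincide in the tumour groups, and the labels do not say whether replicate cultures came from separate animals, so p-values cover no more than the spread among the cultures at hand.

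Lecticans are secreted proteoglycans that bind hyaluronan at one end and tenascins at the other and carry chondroitin sulfate chains. Link proteins clamp a lectican to hyaluronan, which stabilises the aggregate, and such aggregates fill the space between brain cells and coat some neurons as perineuronal nets. Cspg4 and Cspg5 also carry chondroitin sulfate but span the cell membrane and do not bind hyaluronan through a link module. Cspg4 is a widely used marker of oligodendrocyte precursors and pericytes.

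In the RefSeq gene order of GRCm38.p6, each lectican gene lies beside a link protein gene, with 0 protein-coding genes between them. The pairs are Acan and Hapln3 on chromosome 7, Bcan and Hapln2 on chromosome 3, Ncan and Hapln4 on chromosome 8, and Vcan and Hapln1 on chromosome 13. RefSeq promoter sequences were found for 8 of the 10 genes, and 2, Hapln4 and Cspg5, had none in the table used. The 250 bases before the annotated start are printed for Acan, Hapln1, Cspg4 and Bcan, members that rose in tumour cultures, 5′ to 3′ on the gene's own strand with CpG dinucleotides in capitals.
Acan (GRCm38.p6, chr7:79052976-79053225, plus strand): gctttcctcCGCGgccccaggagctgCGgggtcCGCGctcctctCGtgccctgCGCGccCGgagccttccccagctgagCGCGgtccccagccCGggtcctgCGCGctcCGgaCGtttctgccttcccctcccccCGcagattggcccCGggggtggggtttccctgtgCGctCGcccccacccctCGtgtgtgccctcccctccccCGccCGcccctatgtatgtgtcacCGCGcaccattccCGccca
Hapln1 (GRCm38.p6, chr13:89540386-89540635, plus strand): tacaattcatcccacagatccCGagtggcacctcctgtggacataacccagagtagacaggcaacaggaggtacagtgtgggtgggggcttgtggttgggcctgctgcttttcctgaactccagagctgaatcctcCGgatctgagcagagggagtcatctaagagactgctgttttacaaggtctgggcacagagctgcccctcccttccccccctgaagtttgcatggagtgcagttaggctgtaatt
Cspg4 (GRCm38.p6, chr9:56864854-56865103, plus strand): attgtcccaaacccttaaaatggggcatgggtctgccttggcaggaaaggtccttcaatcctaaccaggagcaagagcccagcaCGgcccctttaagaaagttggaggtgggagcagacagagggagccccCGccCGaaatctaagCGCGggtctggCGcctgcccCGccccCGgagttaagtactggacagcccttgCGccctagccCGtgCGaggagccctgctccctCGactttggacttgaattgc
Bcan (GRCm38.p6, chr3:88000357-88000606, minus strand): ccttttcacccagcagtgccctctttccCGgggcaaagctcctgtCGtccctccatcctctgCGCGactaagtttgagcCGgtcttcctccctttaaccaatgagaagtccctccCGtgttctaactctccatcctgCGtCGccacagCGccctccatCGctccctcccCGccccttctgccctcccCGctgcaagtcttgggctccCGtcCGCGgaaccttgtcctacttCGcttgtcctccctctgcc
The Acan stretch held 26 CpG dinucleotides at 74.4% GC, and 9.59% of all 32851 promoter stretches of that length held as many or more. The Hapln1 stretch held 2 at 54.4% GC, against a median of 6 CpG and 52.4% GC over all stretches, and 29% of stretches held as few or fewer. Cspg4 had 12 and Bcan 16. The motifs AACAAT and ACAAAG (SOX type), CAGCTG and CATCTG (E-box type) were searched on both strands. None of the 4 is contained in another, and CAGCTG reads the same on both strands. Of the 4 printed stretches, that of Acan held a match, CAGCTG with its first base 179 bases before the start. This motif was present in 13% of all stretches, AACAAT in 9.42%, ACAAAG in 16.5% and CATCTG in 14.4%. The Ncan stretch also held CAGCTG, Hapln2 held AACAAT and CAGCTG, Hapln3 held AACAAT, and Vcan held none of the 4 motifs.

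Across the table, array medians lay between 7.60 and 7.66, and the arrays carry no read depth, so their number limits the precision. As a gauge of background, 4 genes of spermatids that no culture should express (Odf1, Prm2, Tnp1, Tnp2) gave readings from 5.60 up to 7.42. A gene whose means both lie at or below 7.42 is therefore not shown to be present, and a difference whose lower mean lies there is a lower bound. Over 9 measured stem cell markers the NSC cultures averaged 11.41 to 11.67 and the tumour cultures 9.84 to 10.23. A list of 11 oligodendrocyte precursor markers averaged 12.08 to 12.39 in the tumour cultures and 9.77 to 9.97 in NSC. RNA from whole cultures was measured, so more cells of a type and more RNA per cell cannot be told apart.

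Of the 10 genes, 7 passed the test between tumour and NSC cultures (limma, Benjamini-Hochberg adjusted p under 0.05 over all probe sets), against 36.7% of all probe sets. Acan, Bcan, Hapln1, Hapln4, Cspg4 and Cspg5 rose, 6 genes against a background of 17.6% called higher, and Ncan fell, against 19.2% called lower. For each of these 7 genes no tumour culture overlapped the NSC cultures, a separation seen upward in 13% and downward in 14.3% of all probe sets. At least 2-fold rises were found for 5 of the 10 genes and for 3.83% of all probe sets. The exceptions were Vcan, and Hapln2 and Hapln3, which stayed at background. For Vcan, mGC1_GFAP replicate 2 lay below every NSC culture and the other tumour cultures lay above.

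**Figure D1:**
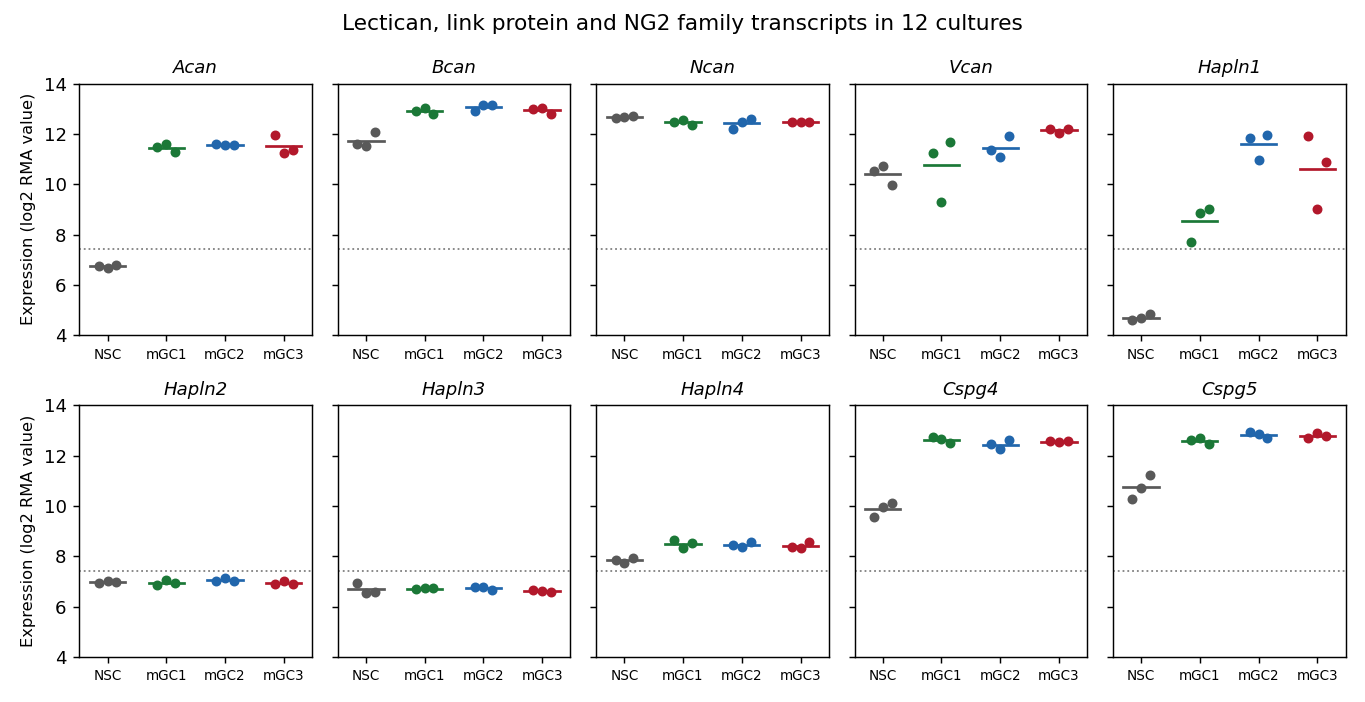
Log2 expression of the 10 genes in each culture, 1 panel per gene, with cultures as points, group means as bars and the background reading of 7.42 as a dotted line. Acan and Hapln1 lie below the line in the 3 NSC cultures and above it in all 9 tumour cultures, while Hapln2 and Hapln3 lie below it throughout.

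Among the lecticans, aggrecan went from a background reading in NSC to a high level in every tumour culture. Acan, the main lectican of cartilage and of perineuronal nets, read 6.76, 6.67 and 6.79 in the NSC cultures of the C/tv-a, N/tv-a and G/tv-a lines. It read 11.50, 11.62 and 11.26 in mGC1_GFAP, 11.62, 11.54 and 11.55 in mGC2_NES and 11.96, 11.24 and 11.35 in mGC3_CNP. The NSC readings lay within those of the spermatid genes, and the tumour cultures of all lines read between 11.24 and 11.96. The rise was 4.78 ± 0.13 (log2, SE from limma, 95% confidence interval 4.49 to 5.06, n = 9 and 3, adjusted p = 2.47e-10), or at least 27.4-fold. It stayed between 4.70 and 4.82 when each array was left out in turn.

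Bcan, a lectican made in brain by glia, was already high in NSC at 11.60, 11.52 and 12.07. It rose to 12.92, 13.02 and 12.80 in mGC1_GFAP, 12.92, 13.14 and 13.14 in mGC2_NES and 12.98, 13.05 and 12.77 in mGC3_CNP. The lowest tumour culture lay above the highest NSC culture, that of G/tv-a. The difference was 1.24 ± 0.11 (confidence interval 1.00 to 1.48, adjusted p = 4.64e-06), a 2.36-fold rise.

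Ncan, the other lectican largely restricted to the nervous system, moved the other way by a small amount. It read 12.63, 12.68 and 12.71 in NSC, 12.48, 12.54 and 12.35 in mGC1_GFAP, 12.21, 12.49 and 12.58 in mGC2_NES and 12.48, 12.47 and 12.49 in mGC3_CNP. Its difference was -0.22 ± 0.07 (confidence interval -0.38 to -0.06, adjusted p = 0.0358). The call was lost without any one of the NSC cultures, mGC1_GFAP replicate 3, or mGC3_CNP replicate 2 or 3 (adjusted p 0.0517 to 0.116), and no single tumour group passed against NSC (adjusted p 0.0981, 0.0532 and 0.140).

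Vcan, the lectican of embryonic and provisional matrix, did not pass in the overall comparison. It read 10.53, 10.72 and 9.99 in NSC and 12.18, 12.05 and 12.20 in mGC3_CNP. In mGC2_NES it read 11.36, 11.09 and 11.93, and in mGC1_GFAP 11.25, 9.30 and 11.69. Thus 8 of 9 tumour cultures lay above every NSC culture, and mGC1_GFAP replicate 2 lay below all of them. The difference was 1.04 ± 0.40 (confidence interval 0.17 to 1.91, adjusted p = 0.0614). It was 1.28 without mGC1_GFAP replicate 2 (adjusted p = 4.04e-04). Against NSC, mGC3_CNP alone passed, at 1.73 ± 0.49 (adjusted p = 0.0177), a 3.32-fold rise that was 1.52 without the NSC culture of G/tv-a (adjusted p = 0.0648). The same comparison gave 0.34 ± 0.49 for mGC1_GFAP (adjusted p = 0.683) and 1.05 ± 0.49 for mGC2_NES (adjusted p = 0.124). Without mGC1_GFAP replicate 2 these passed, at 1.06 (adjusted p = 0.0121) and 1.05 (adjusted p = 0.00489).

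Among the link proteins, Hapln1, the linker first described in cartilage, also rose from a background reading in NSC. It read 4.58, 4.68 and 4.84 in NSC, below every reading of the spermatid genes. It read 7.70, 8.84 and 9.03 in mGC1_GFAP, 11.83, 10.96 and 11.97 in mGC2_NES and 11.92, 9.02 and 10.90 in mGC3_CNP. Every tumour culture lay above background and above the NSC cultures, over a range of more than 4 log2 units. The rise was 5.54 ± 0.49 (confidence interval 4.47 to 6.61, adjusted p = 3.99e-06), or at least 46.6-fold. By group it was at least 3.82 ± 0.60 in mGC1_GFAP, 6.89 ± 0.60 in mGC2_NES and 5.91 ± 0.60 in mGC3_CNP, each called (adjusted p = 5.20e-04, 4.98e-06 and 1.87e-05).

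Hapln4, a brain link protein of perineuronal nets, rose modestly from a low level. It read 7.86, 7.75 and 7.93 in NSC, 8.65, 8.32 and 8.53 in mGC1_GFAP, 8.43, 8.37 and 8.58 in mGC2_NES and 8.38, 8.33 and 8.55 in mGC3_CNP. The groups did not overlap, and the difference was 0.61 ± 0.08 (confidence interval 0.44 to 0.79, adjusted p = 8.81e-05), a 1.53-fold rise. Hapln2, the link protein of nodes of Ranvier, and Hapln3, a link protein of wider tissue distribution, were not shown to be present in any culture. Hapln2 read 6.84 to 7.13 over the 12 cultures and differed by 0.00 (confidence interval -0.12 to 0.13), and Hapln3 read 6.55 to 6.92 and differed by -0.01 (confidence interval -0.17 to 0.15). Set by gene pair, the rise in Acan stood beside a background reading of its neighbour Hapln3, and the rise in Bcan beside a background reading of Hapln2. In the other pairs, Ncan fell slightly, in a call lost without some single cultures, where its neighbour Hapln4 rose. Hapln1 rose where Vcan, also higher in tumour cultures by 1.04, did not pass.

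Both membrane proteoglycans rose in every tumour group. Cspg4 (NG2), a single-pass proteoglycan that binds PDGF-AA and collagen VI, read 9.58, 9.94 and 10.11 in NSC. It read 12.75, 12.65 and 12.49 in mGC1_GFAP, 12.44, 12.25 and 12.63 in mGC2_NES and 12.56, 12.53 and 12.57 in mGC3_CNP. The lowest tumour culture stood over 2 log2 units above the highest NSC culture. The difference was 2.66 ± 0.11 (confidence interval 2.43 to 2.90, adjusted p = 7.20e-09), a 6.34-fold rise. Cspg5, a brain proteoglycan with an EGF-like domain, read 10.30, 10.71 and 11.23 in NSC, which is a wider spread than in any tumour group. It read 12.63, 12.72 and 12.46 in mGC1_GFAP, 12.93, 12.86 and 12.69 in mGC2_NES and 12.69, 12.91 and 12.79 in mGC3_CNP. The difference was 1.99 ± 0.15 (confidence interval 1.66 to 2.32, adjusted p = 1.16e-06), a 3.98-fold rise.

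**Figure D2:**
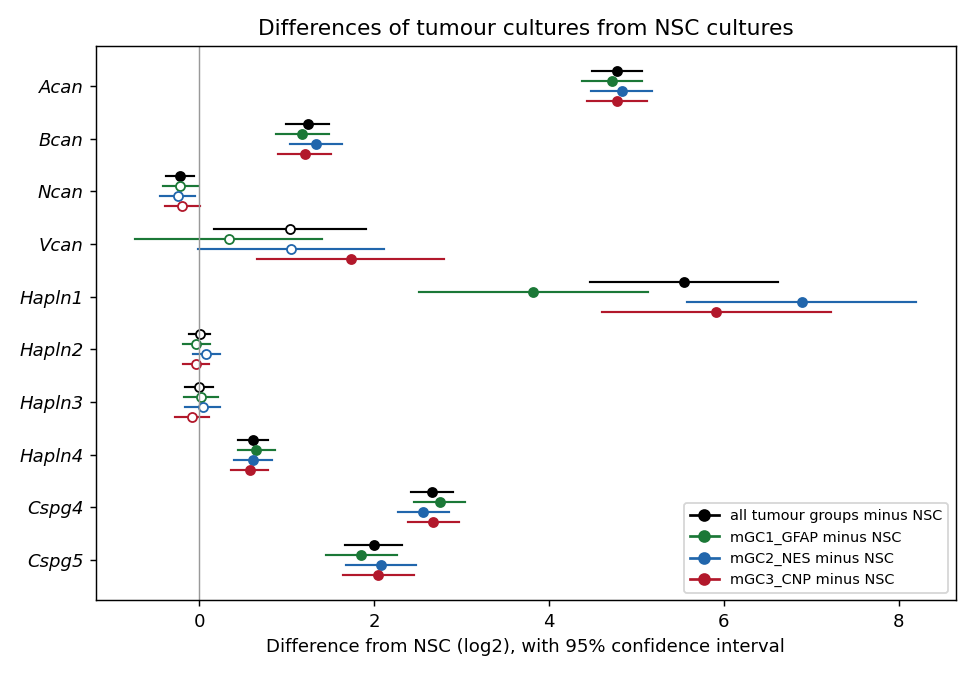
Difference from NSC in log2 units with its 95% confidence interval from limma, for all tumour groups together (black) and each tumour group. Filled points passed at an adjusted p under 0.05, and the 4 estimates of a gene share the same NSC cultures. Hapln1 spans 3.82 in mGC1_GFAP to 6.89 in mGC2_NES, whereas Acan lies between 4.72 and 4.83 in the 3 groups.

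Each tumour group was also set against the same 3 NSC cultures. In mGC1_GFAP 6 of the 10 genes were called (29.3% of all probe sets), in mGC2_NES 6 (34.9%) and in mGC3_CNP 7 (30.3%). Acan, Bcan, Hapln1, Hapln4, Cspg4 and Cspg5 were called higher in each group, and Vcan was the seventh in mGC3_CNP. The Acan rise was 4.72 ± 0.16, 4.83 ± 0.16 and 4.78 ± 0.16 in mGC1_GFAP, mGC2_NES and mGC3_CNP, and the Cspg4 rise 2.75 ± 0.13, 2.56 ± 0.13 and 2.68 ± 0.13. Median differences were 1.14 over the 4 lecticans, 0.31 over the 4 link proteins and 2.33 over Cspg4 and Cspg5, against 0.01 over all probe sets.

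The design asked whether the cell of origin alters the tumour cells, and for most of these genes no difference between tumour groups was called. The test of any difference among the 3 groups called 0 of the 10 genes (4.05% of all probe sets, limma F test), and 1, Hapln1, had an unadjusted p under 0.05 (19.5%). Between mGC1_GFAP and mGC2_NES 1 gene, Hapln1, was called (6.13% of all probe sets). Between mGC1_GFAP and mGC3_CNP none was called (0.487%), with 2 genes, Vcan and Hapln1, at an unadjusted p under 0.05 (12.9%). Between mGC2_NES and mGC3_CNP none was called (0.459%), and 0 had an unadjusted p under 0.05 (13.3%). For Acan the 95% confidence intervals of the 3 pairwise differences lay within -0.50 and 0.44, and for Cspg4 within -0.35 and 0.42. Bcan differed by -0.15 (confidence interval -0.38 to 0.07) between mGC1_GFAP and mGC2_NES, and Cspg5 by -0.22 (confidence interval -0.44 to -0.01, adjusted p = 0.223).

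Hapln1 was lower in mGC1_GFAP than in mGC2_NES by -3.07 ± 0.66 (log2, confidence interval -4.56 to -1.58, adjusted p = 0.0294), an 8.38-fold difference. The cultures did not overlap, a separation in this direction that 13.8% of all probe sets showed. The call was lost when any of these 6 cultures was left out (estimates -3.38 to -2.66, adjusted p 0.0571 to 0.102) and with a robust variance prior (adjusted p = 0.0637). Ordered by mean, Hapln1 stood at 4.70 ± 0.13 in NSC (SD, n = 3), 8.52 ± 0.72 in mGC1_GFAP, 10.61 ± 1.47 in mGC3_CNP and 11.59 ± 0.55 in mGC2_NES. The neighbours mGC1_GFAP and mGC3_CNP differed by -2.09 ± 0.66 (adjusted p = 0.221) and overlapped at mGC3_CNP replicate 2. The neighbours mGC2_NES and mGC3_CNP differed by 0.97 ± 0.66 (adjusted p = 0.588). The F test gave Hapln1 an adjusted p of 0.0653, and 0.0382 without mGC3_CNP replicate 1 or 0.0227 without replicate 2. Vcan was ordered NSC, mGC1_GFAP, mGC2_NES, mGC3_CNP at 10.41 ± 0.38, 10.75 ± 1.28, 11.46 ± 0.43 and 12.14 ± 0.08, and no pair of tumour groups was called. Its largest tumour difference was -1.40 ± 0.52 between mGC1_GFAP and mGC3_CNP (adjusted p = 0.299).

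The variability of Hapln1 and Vcan stood out from the rest of the table. Over the 9 tumour cultures Hapln1 had a standard deviation of 1.61 log2 units, exceeded by 18 of 21780 probe sets (0.0826%), and Vcan one of 0.91, exceeded by 157 (0.721%). These values include the differences between the 3 groups. That of Vcan also includes mGC1_GFAP replicate 2, which read 9.30 with the next culture at 11.09. Acan (0.22), Bcan (0.13), Ncan (0.11), Hapln4 (0.12), Cspg4 (0.14) and Cspg5 (0.15) had smaller values, with 18.7% of probe sets above Acan and 62.4% above Ncan. The probe sets most like Hapln1 over the 9 tumour cultures were those of Map2k1 (Pearson r = 0.966), Glt8d1 (0.956) and Tbc1d7 (0.956). Those most like Vcan were Atp13a3 (0.949), Ppp2r3a (0.945) and the odorant receptor gene Olfr869 (0.919), which read 3.58 to 3.97 and so is not shown to be present. These correlations describe 9 cultures in 3 groups and carry no test.

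Cartilage genes were listed because Acan and Hapln1 are also cartilage matrix genes. Of 10 such genes 6 rose in tumour cultures and 1, Matn3, was called lower at background readings, with a median difference of 0.46. Of all probe sets 17.6% were called higher and 19.2% lower. Against NSC, 3 of the 10 were called higher in mGC1_GFAP, 6 in mGC2_NES and 5 in mGC3_CNP. Of all 21780 probe sets, 3036, 3623 and 3235 were called higher there, and calls in either direction covered 29.3%, 34.9% and 30.3%. Matn1 passed narrowly with all tumour groups together (limma, adjusted p = 0.0467), from a background reading in NSC. Col9a1, a chain of the fibril-associated collagen IX, rose by 2.48 ± 0.20 (adjusted p = 2.04e-06), whereas Col2a1, the defining collagen of cartilage, was not called at 0.10. Comp, Matn3 and Chad never rose above background. The mean of the list was 7.39 to 7.45 in NSC, 7.91 to 8.07 in mGC1_GFAP, 8.36 to 8.62 in mGC2_NES and 7.82 to 8.40 in mGC3_CNP. Over the 9 tumour cultures the correlation of these 10 genes with Hapln1 ranged from -0.07 to 0.87. It was highest for Col9a3 (another collagen IX chain, r = 0.875) and Col11a2 (0.857), followed by Matn1 (0.568), Cnmd (0.554), Col9a2 (0.393) and Col9a1 (0.271). It was near 0 for Col2a1 (0.02), Matn3 (0.03) and Chad (-0.07), and 0.156 for Comp. Of the other genes set against Hapln1, Adamts5 gave 0.683, Acan 0.498, Vcan 0.398 and Has2 0.246. Col9a3 read 9.15, 9.29 and 9.13 in mGC1_GFAP, 10.71, 10.41 and 10.84 in mGC2_NES and 10.65, 9.44 and 9.30 in mGC3_CNP. It was lower in mGC1_GFAP than in mGC2_NES by -1.46 ± 0.30 (adjusted p = 0.0252, and 0.0558 to 0.0836 without any of these 6 cultures). Cnmd, which encodes the cartilage protein chondromodulin, was highest in mGC2_NES, with mGC1_GFAP minus mGC2_NES at -1.82 ± 0.19 (adjusted p = 0.00290) and mGC2_NES minus mGC3_CNP at 2.25 ± 0.19 (adjusted p = 0.00177). The part of these genes' variation in the Hapln1 difference was not tested.

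**Figure D3:**
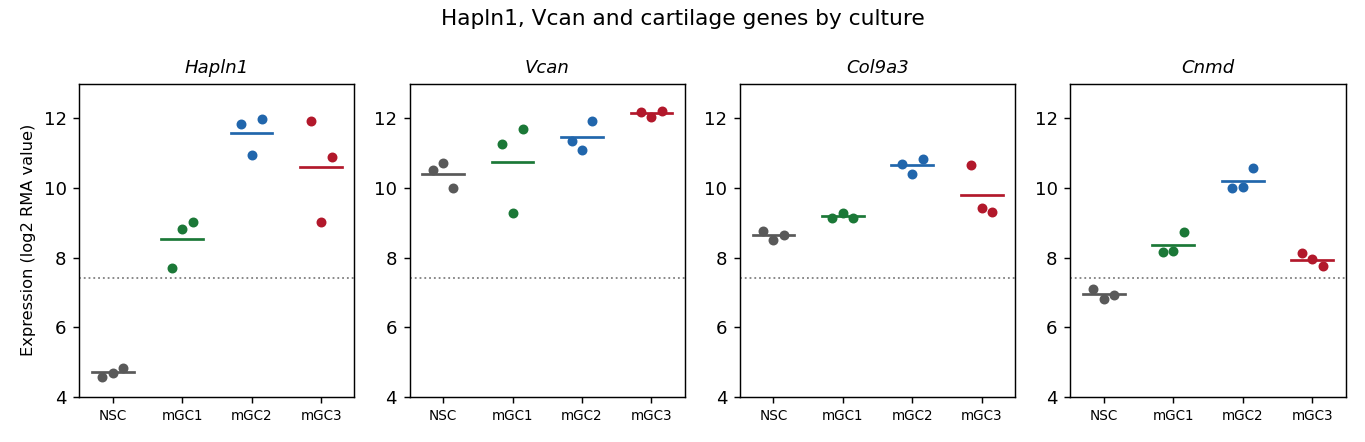
Log2 expression of Hapln1, Vcan and the cartilage genes Col9a3 and Cnmd in each culture, with group means as bars and the background reading of 7.42 dotted. In mGC3_CNP, replicate 1 is the highest culture for both Hapln1 (11.92) and Col9a3 (10.65), and mGC1_GFAP replicate 2 is the lowest for Vcan (9.30).

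Since each NSC culture shares its line with 1 tumour group, tumour groups were also set against the NSC culture of their own line. The rise in Acan was 4.67 in G/tv-a, 4.90 in N/tv-a and 4.76 in C/tv-a. That in Cspg4 was 2.51, 2.50 and 2.98, that in Bcan 0.84, 1.54 and 1.33, and that in Cspg5 1.37, 2.11 and 2.50. Hapln1 rose by 3.68, 6.91 and 6.03, and Ncan differed by -0.25, -0.25 and -0.15. A test of whether the difference depends on the line called 0 of the 10 genes (0.615% of all probe sets, limma F test), and 3 had an unadjusted p under 0.05 (9.64%). Among these Cspg5 had an adjusted p of 0.0856, Hapln3 of 0.252 and Bcan of 0.375. The test rests on 1 NSC culture per line, assumed to vary like the tumour cultures.

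Genes that make, bind, cut or decorate this matrix were listed by role, 64 genes in 9 lists, of which 61 were measured (Hyal1, Tmem2 and Susd5 were not). Between tumour and NSC cultures 15 of the 61 rose and 20 fell, beside 17.6% and 19.2% of all probe sets. Of 3 hyaluronan synthases 1 rose, with a list median of 0.07. Has2 read 8.04, 7.76 and 8.81 in NSC and 9.36 to 10.58 in tumour cultures (median 10.25), a rise of 1.94 ± 0.25 (adjusted p = 7.98e-05), while Has1 and Has3 stayed at background.

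Among 6 hyaluronan receptors 2 fell and none rose (median 0.03). Cd44, the main cell surface receptor for hyaluronan, read 10.67, 10.55 and 10.35 in NSC and 7.06 to 8.17 in tumour cultures. It fell by 3.00 on the log2 scale (SE 0.22, adjusted p = 1.01e-06), or 7.98-fold. Layn (layilin), another membrane receptor, differed by -2.98 ± 0.20 (adjusted p = 3.61e-07) to a background reading. Of 3 measured hyaluronan-degrading genes 2 fell (median -0.41), Cemip at -0.59 ± 0.16 (a lower bound in size, adjusted p = 0.0122, and 0.0557 without the NSC culture of C/tv-a) and Hyal2 at -0.41 ± 0.06. Of the 8 other hyaluronan-binding genes 2, Itih3 and Itih5, were called lower (median -0.01), both with means below the background reading in both groups. Without the NSC culture of G/tv-a these calls were lost (adjusted p = 0.158 and 0.0586), and that of Itih3 also without the one of C/tv-a (adjusted p = 0.103). Of the 4 tenascins, which crosslink lecticans, 1 rose and 1 fell (median -0.05). Tnr, the tenascin of perineuronal nets, rose by 2.38 ± 0.27 (adjusted p = 3.15e-05), and Tnc, the tenascin of stem cell niches, read 13.01 to 13.42 in NSC and 8.52 to 11.50 in tumour cultures (-3.39 ± 0.53, adjusted p = 3.34e-04).

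Of 9 proteases that cleave lecticans 2 rose and 4 fell (median -0.03), of which Adamts16 had both means at background. Adamts4 fell from 9.82, 9.70 and 9.78 in NSC to at most 8.15 in tumour cultures (-2.18 ± 0.18, adjusted p = 2.63e-06), and Adamts9 fell at each of its 6 probe sets, by estimates from -1.99 to -0.98. Adamts1 rose by 1.69 ± 0.29 (adjusted p = 6.83e-04). Of 12 genes of chondroitin sulfate chain synthesis 5 rose and 3 fell (median 0.12). Chsy3, a chain polymerase, rose by at least 1.55 ± 0.12, Fam20b, the kinase that primes chain extension, by 0.87 ± 0.06, and Xylt1, which starts the chain, by 0.71 ± 0.08. The call of Csgalnact1 (-0.54 ± 0.18) was lost without any one of the NSC cultures, mGC2_NES replicate 1 or mGC3_CNP replicate 2 (adjusted p up to 0.148). That of Csgalnact2 (0.17 ± 0.06) was lost without any one of the NSC cultures, mGC1_GFAP or mGC2_NES replicate 1 or 2, or mGC3_CNP replicate 1 or 3 (adjusted p up to 0.156). It was also lost with an intensity trend in the variance prior (0.0629) and with array medians subtracted (0.0813).

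Of 10 genes that sulfate or epimerise the chains 5 rose and 4 fell (median 0.10). Chst15, which adds a further sulfate to 4-sulfated units, rose by 1.94 ± 0.14 (adjusted p = 6.52e-07), and Chst11, a 4-O-sulfotransferase, by 1.21 ± 0.07 (adjusted p = 1.99e-07). Chst7, a 6-O-sulfotransferase, read 9.56, 8.98 and 9.45 in NSC and 5.81 to 6.95 in tumour cultures, a difference of -3.03 ± 0.20 in which the tumour cultures were at background (adjusted p = 4.29e-07). Its relative Chst3 also fell, from a mean of 8.79 to 7.79 (limma, adjusted p = 5.44e-04). By group, Chst3 was called lower in mGC2_NES and mGC3_CNP but not in mGC1_GFAP. The smallest call, Chst12 at 0.27 ± 0.09, was lost with mouse line as a block (adjusted p = 0.0600), on subtraction of array medians (0.0597), on adjustment over all probe sets (0.0503) and without any one of the NSC cultures, the mGC1_GFAP cultures, or mGC2_NES replicate 1 or 3 (adjusted p up to 0.132). The call of Dsel (-0.35 ± 0.11) was lost without the NSC culture of C/tv-a or of G/tv-a (adjusted p = 0.110 and 0.141). Of 6 chondroitin sulfate receptors 1 rose, Ptprs by 0.42 ± 0.06, and 2 fell, Ptprf at -0.85 ± 0.07 and Rtn4rl1 at -0.85 ± 0.14 (median 0.05).

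Among the 61 measured genes 3 were called between mGC1_GFAP and mGC2_NES, which is no larger a share than the 6.13% of all probe sets. Fam20b was lower in mGC1_GFAP (-0.76 ± 0.07, adjusted p = 0.00197) and was the single listed gene called by the F test (adjusted p = 0.00421). Chpf2, a chain polymerising factor, was also lower (-0.47 ± 0.11, adjusted p = 0.0354, and 0.0507 to 0.118 without any of these 6 cultures). Hmmr, a hyaluronan-binding protein of the mitotic spindle, was higher in mGC1_GFAP (0.67 ± 0.14, adjusted p = 0.0295), a call lost without mGC1_GFAP replicate 1 or 3 or mGC2_NES replicate 2 or 3 (adjusted p 0.0585 to 0.105) and when these groups alone were fitted (adjusted p = 0.0600).

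**Figure D4:**
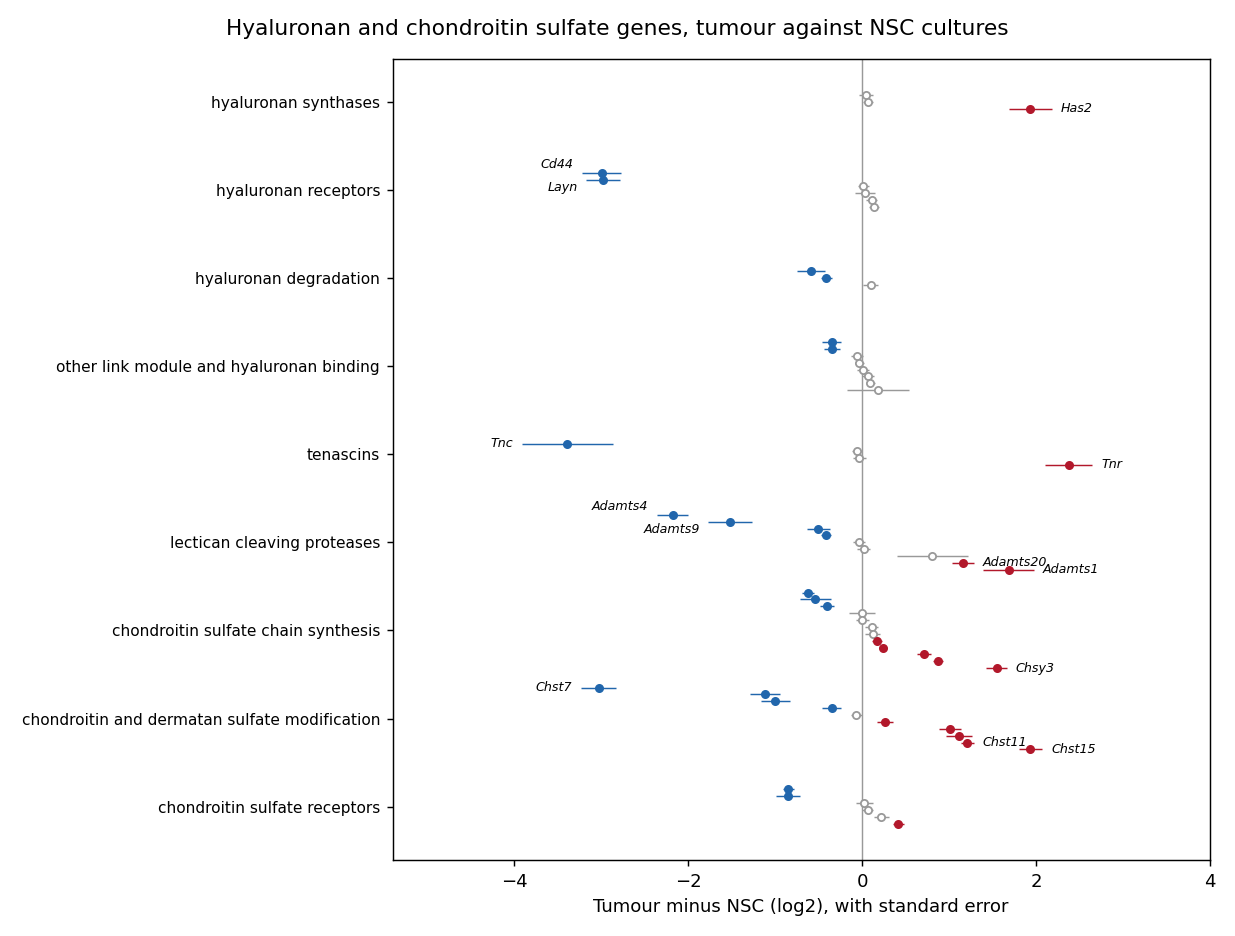
Tumour minus NSC difference in log2 units with its standard error, 1 point per measured gene (for Adamts9 the probe set with the smallest p), grouped by role. Red points were called higher, blue points lower, and open points were not called. Has2, Tnr and Chst15 lie to the right of 1.9, and Cd44, Tnc and Chst7 near or beyond -3.00.

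Markers of several cell types moved as follows, beside 17.6% of all probe sets called higher and 19.2% called lower. Of 11 oligodendrocyte precursor markers 8 rose and 0 fell, with a median difference of 2.53. Sox10 rose by 4.51 ± 0.05, Gpr17 by 4.19 ± 0.19 and Pdgfra, a PDGF receptor, by 3.80 ± 0.06. Olig1 (-0.04), Olig2 (-0.14) and Ptprz1 (0.02) were not called, with both means above background. Against NSC, Olig2 was called lower in mGC2_NES. Of 10 astrocyte markers 7 fell and 2 rose, S100b by at least 4.62 ± 0.12 and Aldoc by 0.67 ± 0.15. Of 9 stem cell markers 6 fell and 0 rose. Pericytes also express Cspg4, and of 10 pericyte and smooth muscle markers 7, Pdgfrb, Rgs5, Abcc9, Kcnj8, Anpep, Des and Higd1b, never read above background in any culture. The mean of that list was 6.93 to 7.13 in tumour and 6.99 to 7.18 in NSC cultures, and 1 gene, Mcam, rose (by 3.12 ± 0.10) while 3 were called lower, Rgs5 among them at background. Of 8 microglia markers 7 never read above background, and 2 markers, C1qb and P2ry12, were called at background readings. Of 10 neuron markers 4 were called higher and 1 lower, of which Slc17a7 (higher) and Stmn2 (lower) had both means at background. The 7 fibroblast markers averaged 6.82 to 6.99 in tumour and 6.88 to 6.97 in NSC cultures. Among them Dcn and Lum were called higher and Pdgfrl lower, each with both means at background. The part of the change in oligodendrocyte precursor, astrocyte and stem cell markers in the rises described here was not tested.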

How the data were processed

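The authors deposited log2 values, 1 per probe set and array, computed by RMA with the software Affymetrix Expression Console according to the submitters' processing notes. RMA equalises array distributions, so a change shared by most genes is not visible. The sources used here name no version, summarisation level or annotation build. Of 28270 probe sets, 23397 were listed in the 2016 platform annotation, 21780 with 1 symbol (tested), 1617 with several and 4873 were not listed. No filter or rescaling was applied. Tests used lmFit and eBayes (limma 3.58.1, R 4.3.3), two-sided, with Benjamini-Hochberg adjustment over 21780 probe sets, called under 0.05, and were checked on simulated data. Comparisons with NSC used 12 arrays and 4 group means (tumour as the mean of 3 groups), comparisons between tumour groups the 9 tumour arrays, and the line test 6 means. All 10 genes were reported, with up to 3 called genes per list by size, those called between tumour groups, and, for members spanning at least 1 log2 unit over the tumour arrays, the 3 most correlated probe sets. Where another list is described, the genes named were chosen after their values were seen. Alternatives changed the variance prior, low-value filter, scaling, probe set universe, arrays fitted, blocks and single arrays. The members and lists were chosen with earlier results of these data known. Sequences are RefSeq's (GRCm38.p6).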

Additional observations from a re-analysis of the deposited data

Results flagged for a closer look

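Over the 9 tumour cultures, 3 of 45 genes examined (the 10 genes and the listed matrix genes called between tumour and NSC cultures) had 1 culture far from the others, judged by its gap to the nearest culture as a share of the whole range and Dixon's 95% critical value. For draws from 1 normal distribution, chance gives this in about 1 of 20 such series. The 9 cultures form 3 groups whose means can differ, so 3 of 45 cannot be weighed against that rate. For Vcan the share was 0.616, from mGC1_GFAP replicate 2 at 9.30 with the next culture at 11.09. For Tnr it was 0.650, from mGC2_NES replicate 1 at 10.56 with the next at 11.65, and the Tnr rise over NSC was 2.15 to 2.53 with each array left out in turn. For Xylt1 it was 0.671, from mGC2_NES replicate 3 at 12.90 with the next at 12.74, and its rise was 0.60 to 0.79.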

How the results depend on the processing

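The number of the 10 genes called was within 1.5 times the reported number in every comparison and setting except these. For mGC1_GFAP against mGC2_NES it went from 1 to 0 with a robust variance prior and was 0 to 1 over single arrays left out. For the F test among tumour groups it went from 0 to 1 (Hapln1, adjusted p = 0.0323) when fitted on all 12 arrays, and was 0 to 1 over single arrays left out. Against NSC, 6 to 8 genes were called with single arrays left out of the overall comparison. No called direction reversed in any setting run.

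Same-numbered tumour cultures correlated at 0.00 to 0.25 in their deviations from the group means, above 0.1 in 5 of 9 pairs, and 6 of 9 arrays correlated best with their own number. This is a hint from the data, and since neither the labels nor every pair bear it out, the cultures were treated as unpaired. With the replicate number as a block, 1, 0 and 0 of the 10 genes were called in the pairwise tumour comparisons and 0 by the F test, as without it. With mouse line as a block, 7 were called between tumour and NSC cultures, and of the other named genes tested Chst12 lost its call.

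With low probe sets left out Vcan passed against NSC (adjusted p = 0.0493), and fitting the 2 groups alone called Vcan in mGC2_NES (adjusted p = 0.0163). Ncan in mGC2_NES passed with an intensity trend (adjusted p = 0.0340), with low probe sets left out (0.0405) and with array medians subtracted (0.0395). Over the whole table, mGC1_GFAP against mGC3_CNP gave 106 calls, 165 over all probe sets, 27 with the 2 groups alone and 65 on 12 arrays. For mGC2_NES against mGC3_CNP the corresponding counts were 100, 164 and 62 with the 2 groups alone. With single arrays left out, calls were 534 to 1619 between mGC1_GFAP and mGC2_NES (1336 with all), 24 to 106, 42 to 133, 222 to 945 for the F test (882) and 58 to 113 for the line test (134). Leaving out an NSC culture gives no value for the line test.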
